A study of Mus musculus with 6 samples.

Results

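Vsx1, Cabp5, Prkca, Trpm1, Pcp2 and Gng13 are genes of retinal bipolar cells, and their signals were read in the retina at postnatal day 4 (P4). All probe sets annotated to 1 of these 6 symbols were taken, whatever their suffix, which gave 12 probe sets out of 22690 on an Affymetrix mouse expression array. Retinas came from 3 wildtype mice and 3 Nhlh2 knockout mice, all of mixed C57/129 background and all P4, with 1 array per mouse. Each wildtype mouse was paired with a knockout littermate, and arrays with the same replicate number were taken here as a litter. The knockout allele is not described further in the sources used here, and no probe set was listed for Nhlh2, so the genotype could not be checked on its target. The questions were which of the 6 genes had a signal above most of the array at P4, and whether their signals differed between littermates.

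Bipolar cells are interneurons that pass signals from photoreceptors to amacrine and ganglion cells, and they are among the last retinal cells to be born. ON bipolar cells respond to glutamate through the receptor mGluR6, the product of Grm6, which acts through the G protein Go to close the cation channel Trpm1. Vsx1 is a homeodomain factor of cone bipolar subtypes, and Prkca is the kinase used to mark rod bipolar cells. In whole retina, fewer cells of a type and less RNA per cell cannot be told apart.

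The arrays differed in overall brightness, with median signals of 57 to 95.6 in wildtype and of 68.5, 9 and 51.4 in knockout 1, 2 and 3. Knockout 2 stood apart. Its ratio of the 3′ to the 5′ Actb probe set was 274, against 1.38 to 1.56 in the other 5 arrays, and its log2 signals correlated with theirs at 0.564 to 0.627, against 0.931 to 0.986 among those 5. Wildtype 1 had a summed scaled signal of 9910 for 12 lens genes, against 156 to 624 elsewhere. Of all genes, 51.3% were above the array median in all 3 wildtype arrays. Among lists of other retinal cells, 9 of 10 rod, 8 of 9 progenitor and 6 of 7 amacrine genes were. The same held for 5 of 5 ganglion cell genes and 6 of 7 Mueller glia genes, but for only 1 of 4 horizontal cell genes (25%). Wildtype levels of bipolar genes are given below as the deposited signal or as the probe set's percentile among all probe sets of its array. The percentile does not depend on scaling. Pigment genes, sums over a list and most comparisons of knockout with wildtype use the signal scaled to a common trimmed mean, which does. A gene was counted as expressed where its highest probe set lay above the array median.

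Only Pcp2 was above the median in all 3 wildtype arrays, 1 of 6 members, where 51.3% of the 12393 genes with a probe set of their own were. Prkca passed in 2 of the 3 arrays, Cabp5 and Trpm1 in 1 each, and Gng13 and Vsx1 in 0. None of the 6 was above the 60th percentile in all 3. Each of the 6 is described below by its probe set with the highest mean deposited signal over the wildtype arrays, and the other probe sets follow. Probe sets differ in affinity, so a place above or below the median describes the probe set in its array, and levels of different genes are not ranked.

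Pcp2, a regulator of Go also known from Purkinje cells of the cerebellum, gave signals of 151, 148 and 212 in wildtype 1, 2 and 3 (mean 170.5 ± 36.1, SD, n = 3). These lay at the 63.0, 58.4 and 75 percentiles, above the median each time and highest in litter 3. The other probe sets of Pcp2 stayed below the median, at percentiles of 44.3, 38.3 and 48.4 for one and of 22.5, 17.2 and 29.1 for the other. The call therefore rested on 1 of 3 probe sets.

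Prkca gave 83.6, 102.6 and 50.1 (78.8 ± 26.6, SD, n = 3), at the 51.7, 51.3 and 47.7 percentiles, so all 3 arrays were within a few percentiles of the median. Cabp5, a calcium-binding protein of rod bipolar and some cone bipolar cells, gave 80.1, 87.8 and 50.4 (72.8 ± 19.7, SD, n = 3), at the 51.0, 48.4 and 47.8 percentiles. Both genes therefore sat at the threshold rather than clearly on one side of it.

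Trpm1, the channel that the mGluR6 cascade closes, gave 87.8, 60.8 and 39.6 (62.7 ± 24.2, SD, n = 3), at the 52.5, 42.3 and 43.9 percentiles. Wildtype 1 was the high array. Trpm1 is also a gene of pigment cells, first known as melastatin, and the pigment genes were present in these samples. Of 9 pigment genes with a probe set, chosen after the Trpm1 values had been seen, 6 were above the median in all 3 wildtype arrays and 5 were highest in wildtype 1. Tyr, the first enzyme of melanin synthesis, had scaled signals of 292, 232 and 148, and Dct, a later enzyme of that pathway, had 735, 494 and 332. On the scaled signal both ran in the same order over the 3 wildtype arrays as Trpm1 did, whereas the summed signal of all 9 was 5910, 5841 and 6733. That sum was carried by Ttr, a transport protein that is also made outside pigment cells, and the other 8 summed to 2781, 2438 and 1582. Of those 8, Tyrp1 and Oca2 also ran in the order of Trpm1. Pmel (908, 974 and 578), Rgr (294, 321 and 271), Slc45a2 and Rpe65 did not. The part of pigment cells in the Trpm1 signal was not tested.

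Gng13, a G protein gamma subunit of ON bipolar cells, gave 40.6, 27.9 and 28.6 (32.4 ± 7.14, SD, n = 3), at the 39.5, 29.5 and 38.5 percentiles. All 3 arrays were below the median. Vsx1 gave 14.3, 22.3 and 20.6 (19.1 ± 4.21, SD, n = 3), at the 22.7, 26.2 and 33.4 percentiles, also below the median each time. The remaining probe sets of the members were below the median in all 3 wildtype arrays, from signals of 0.9 for that of Vsx1 to 56.8 for that of Cabp5.

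**Figure D1:**
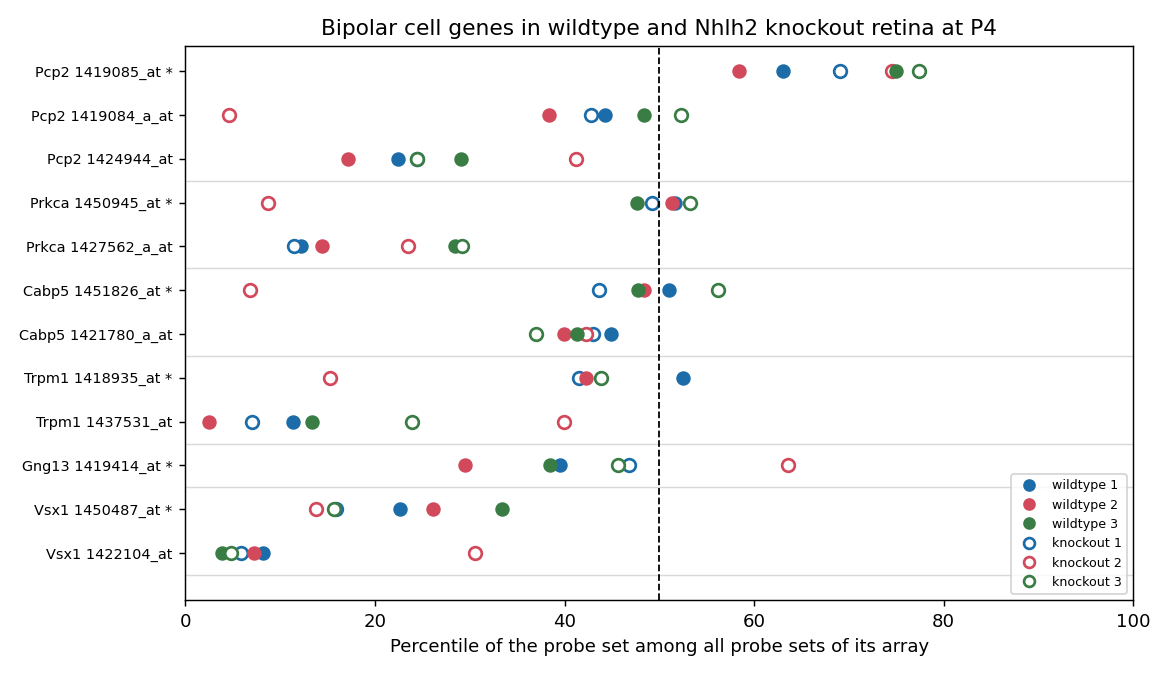
Percentile of each of the 12 probe sets among all probe sets of its array (horizontal axis), with wildtype arrays as filled points, knockout arrays as open points and 1 colour per litter. An asterisk marks the probe set used for each gene and the dashed line is the array median; only the marked Pcp2 probe set has all 3 filled points to the right of it.

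Other genes of bipolar cells were read beside the members in the same way. Of 10 other bipolar transcription factors with a probe set, 5 were above the median in all 3 wildtype arrays, 1 in some arrays and 4 in none. That share of 50% is near the 51.3% of all genes. Otx2, a homeodomain factor of photoreceptors and bipolar cells, lay at the 98.8, 99.2 and 98.2 percentiles. Neurod4, a bHLH factor of retinal neurons, lay at 98.3, 98.4 and 98.2. The homeodomain factors Irx5 (87.1, 88.6 and 84.2) and Isl1 (75.4, 81.9 and 78.6) were also above the median, although Isl1 is shared with ganglion and amacrine cells and Otx2 with rods. Among those below it in all 3 arrays were Bhlhe23, a bHLH factor of rod bipolar cells, at 18.7, 2.90 and 7.05, Lhx3, a LIM homeodomain factor, at 34.3, 35.5 and 18.1, and Sebox, a homeodomain gene, at 37.5, 33.0 and 27.0.

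Of 10 genes of the mGluR6 cascade, 5 had a probe set. Of these, 4 (80%) were above the median in all 3 wildtype arrays, where 51.3% of all genes were. Gnb3, the G protein beta subunit of cones and ON bipolar cells, was at the 90.8, 92.7 and 95.5 percentiles. Gnao1, the alpha subunit of Go that is common in neurons, was at 83.5, 83.0 and 81.5. Rgs7 and its partner Gnb5, which speed the shut-off of Go, were at 58.7 to 62.4 and at 82.6 to 85.0. Rgs11, the other such regulator in ON bipolar cells, was below the median at 37.0, 42.4 and 40.4. Grm6, Nyx, Gpr179, Lrit3 and Rgs9bp had no listed probe set and were not analysed here. Gnao1, Gnb5 and Rgs7 are also used by other neurons, and Gnb3 by cones.

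Further proteins of mature bipolar cells were mostly below the median. Of 9 with a probe set, 1 (11.1%) was above the median in all 3 wildtype arrays and 8 in none, against 51.3% of all genes above it in all 3. Cabp1, a calcium-binding protein related to Cabp5, was the one above it, at 52.2, 52.0 and 61.2. The GABA receptor subunits Gabrr1 (8.87, 11.8 and 18.3) and Gabrr2 (5.12, 8.57 and 4.44) and the calcium-binding protein Cabp2 (10.8, 9.81 and 12.4) were among those below it.

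**Figure D2:**
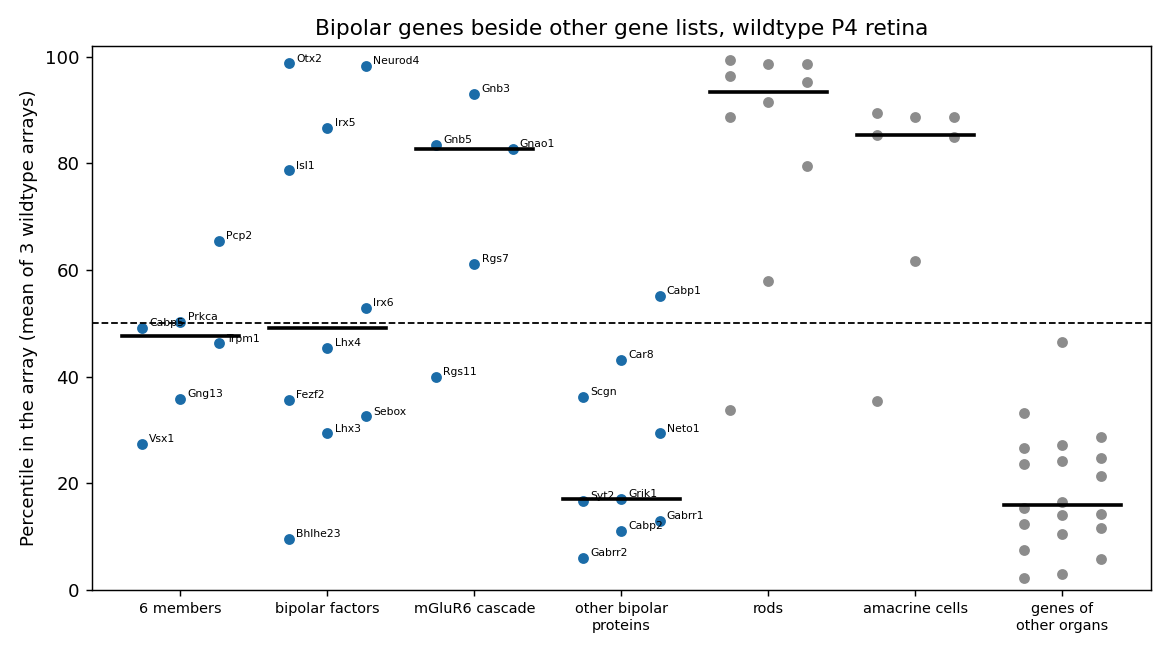
Mean percentile over the 3 wildtype arrays (vertical axis) for each gene, by list, with a bar at the list's median and a dashed line at the array median. The 6 members lie between 27.4 and 65.5, and since probe sets differ in affinity the heights of different genes and lists are not ranked.

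Since Otx2 was above the median in all 3 wildtype arrays, the RefSeq promoter windows of the members were searched for TAATCC, the letters that Otx2 and Crx prefer, and for TAATTA, the letters many homeodomain factors prefer, on both strands. Each window runs from 250 bases before to 50 bases after a transcript start in GRCm38.p6, and the 6 genes, on chromosomes 2 (Vsx1), 7 (Cabp5 and Trpm1), 8 (Pcp2), 11 (Prkca) and 17 (Gng13), have 11 windows. TAATCC was in 2 of the 11, those of Cabp5 and Trpm1, and in 7.06% of 32851 windows of the same length. TAATTA was in 1, the third window of Pcp2, and in 5.29% of all windows. The pair of windows with TAATCC are shown 5′ to 3′ on the gene's strand, with the matched letters in capitals. The first window of Pcp2, the member above the median in all 3 wildtype arrays, is shown likewise and holds neither. The Cabp5 window (chr7:13397905-13398204, plus strand) lies inside the annotated span of the gene and has matches starting 160 and 41 bases before the start. The Trpm1 window (chr7:64153585-64153884, plus strand) has 1 match, read on the opposite strand as GGATTA, 34 bases before the start. The Pcp2 window is chr8:3625498-3625797 on the minus strand. A match describes letters and says nothing of binding.
Cabp5: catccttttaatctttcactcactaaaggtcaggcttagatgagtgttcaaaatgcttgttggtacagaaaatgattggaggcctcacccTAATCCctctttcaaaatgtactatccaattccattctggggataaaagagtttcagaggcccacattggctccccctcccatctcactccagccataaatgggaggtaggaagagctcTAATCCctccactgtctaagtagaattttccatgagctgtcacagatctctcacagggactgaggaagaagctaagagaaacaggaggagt
Trpm1: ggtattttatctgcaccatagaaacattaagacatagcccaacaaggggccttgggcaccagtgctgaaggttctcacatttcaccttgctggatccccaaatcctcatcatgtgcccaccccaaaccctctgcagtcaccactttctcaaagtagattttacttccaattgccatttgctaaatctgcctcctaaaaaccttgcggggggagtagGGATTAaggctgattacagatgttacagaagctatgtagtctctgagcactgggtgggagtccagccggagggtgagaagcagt
Pcp2: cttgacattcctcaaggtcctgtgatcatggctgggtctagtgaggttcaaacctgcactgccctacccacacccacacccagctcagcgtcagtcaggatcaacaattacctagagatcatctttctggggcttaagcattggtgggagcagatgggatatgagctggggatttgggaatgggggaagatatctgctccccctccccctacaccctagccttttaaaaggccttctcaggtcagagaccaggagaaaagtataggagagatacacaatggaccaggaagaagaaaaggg

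Between knockout and wildtype, no member passed the test. With signals brought to a common trimmed mean and 16 added before log2, 11603 probe sets passed the filter on low values, among them those of 2 of the 6 members, Pcp2 and Prkca. The limma fit called 0 of the 11603 (0%) at an adjusted p under 0.05, with 11 at an unadjusted p under 0.05. It also called 0 (0%) without knockout 2, with 71 at an unadjusted p under 0.05. The median difference over all 11603 was -0.17 with all arrays and -0.01 without knockout 2. With all arrays it was 0.04 over the 11603 when centred on the 75th percentile. Over all 22626 probe sets without the filter it was 0.03, so its sign depended on the scaling and the filter.

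Pcp2 signals in knockout 1, 2 and 3 were 182, 22 and 226 as deposited. Scaled, Pcp2 was 151, 122 and 252 in wildtype against 201, 189 and 294 in knockout, and the knockout was higher in each of the 3 pairs, by 0.38, 0.57 and 0.21 on the log2 scale. The groups overlapped, because wildtype 3 exceeded knockout 1 and 2. The other probe sets of Pcp2 did not share this direction in every pair. Their pair differences were -0.12, -1.45 and 0.26 for one and 0.07, 1.504 and -0.17 for the other. Without the filter their fitted differences were -0.44 and 0.47, and 0.21 and 0.07 without knockout 2. The mean of the 3 probe sets gave a fitted difference of 0.14. For the brightest probe set the fitted difference was 0.39 (SE 0.37, limma adjusted p = 0.754), and 0.50 (SE 0.32, limma adjusted p = 0.9996) without knockout 2. It was 0.18 without wildtype 2, 0.20 without knockout 3 and 0.66 without wildtype 3. Litter 3 had the highest Pcp2 in both genotypes, and its rod genes, summed, were also highest in wildtype 3 (14268, 16351 and 22964 in wildtype, 15732, 29227 and 18233 in knockout). Over the 6 arrays the scaled log2 signal most like that of Pcp2 was Zfp219, a zinc finger gene, with Pearson r = 0.983 (0.993 without knockout 2), the highest of 10727 probe sets, given as a description.

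Prkca signals in the knockout were 65.8, 0.7 and 62.7. On the scaled signal the pairs differed by -0.17, -2.19 and 0.37 on the log2 scale, so pair 2 carried the difference and the pairs did not share a direction. The fitted difference was -0.66 (SE 0.60, limma adjusted p = 0.754) with all arrays and 0.03 (SE 0.20, limma adjusted p = 0.9996) without knockout 2. Cabp5 showed the same reliance on pair 2, with deposited signals of 46.7, 0.6 and 74 and pair differences of -0.51, -2.06 and 0.56. Without the filter its fitted difference was -0.67 (SE 0.60, limma adjusted p = 0.802), and it was 0.01 without knockout 2.

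Of the 12 probe sets, 3 had scaled signals that did not overlap between the genotypes. Knockout was lower for the brighter probe sets of Vsx1 and Trpm1, 2 of 12 where 3.07% of all probe sets did so, and higher for Gng13, 1 of 12 where 4.62% did. The same 3 did not overlap without knockout 2, where the shares of all probe sets were 7.23% lower and 7.01% higher. None of the 3 passed the filter on low values.

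Vsx1 had scaled signals of 14.3, 18.4 and 24.5 in wildtype against 7.30, 8.61 and 6.37 in knockout, lower in each pair, with differences of -0.38, -0.48 and -0.86 on the log2(signal + 16) scale, which understates changes of dim probe sets. The fit without the filter gave -0.57 (SE 0.27, limma adjusted p = 0.802), and -0.61 (SE 0.20, limma adjusted p = 0.9998) without knockout 2. The other Vsx1 probe set gave 0.43, and -0.02 without knockout 2, and the mean of both gave -0.07. The deposited signals, 14.3, 22.3 and 20.6 against 6.6, 1 and 4.9, did not overlap either, but with arrays centred on their 75th percentile, knockout 2 included, they overlapped and the difference turned to 0.33.

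Gng13 had scaled signals of 40.6, 23.0 and 34.0 in wildtype against 62.7, 122 and 51.9 in knockout, higher in each pair by 0.48, 1.83 and 0.44. The fit without the filter gave 0.91 (SE 0.37, limma adjusted p = 0.802), and 0.61 (SE 0.23, limma adjusted p = 0.9998) without knockout 2. On the deposited signals, 40.6, 27.9 and 28.6 against 56.7, 14.2 and 39.9, the groups overlapped and the difference was 0.05. On the percentile, and with arrays centred on their 75th percentile, Gng13 was higher in the knockout without overlap, and the centred difference was 1.18. Trpm1 had scaled signals of 87.8, 50.1 and 47.0 in wildtype against 45.6, 9.47 and 46.6 in knockout, with pair differences of -0.75, -1.38 and -0.01. Pair 3 was therefore level, and the groups were separated by less than 1 unit of signal. The fit without the filter gave -0.71 (SE 0.44, limma adjusted p = 0.802), and -0.29 (SE 0.27, limma adjusted p = 0.9998) without knockout 2. The other Trpm1 probe set went the opposite way, at 0.81, and 0.30 without knockout 2, and the mean of both gave 0.05. Pigment genes had differences of the same sign as Trpm1 most often in pair 1. Tyr had scaled signals of 292, 232 and 148 in wildtype against 192, 122 and 147 in knockout. Dct had 735, 494 and 332 against 480, 408 and 555, so it was higher in the knockout of pair 3. Pmel had 908, 974 and 578 against 736, 1085 and 740, higher in the knockout of pairs 2 and 3. Of the 9 pigment genes, 9, 5 and 4 were lower in the knockout of pairs 1, 2 and 3. Their part in the Trpm1 difference was not tested. The groups overlapped on the deposited signals (41.2, 1.1 and 35.8 in knockout) and on the percentile, and with arrays centred on their 75th percentile they overlapped and the difference was 0.09.

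**Figure D3:**
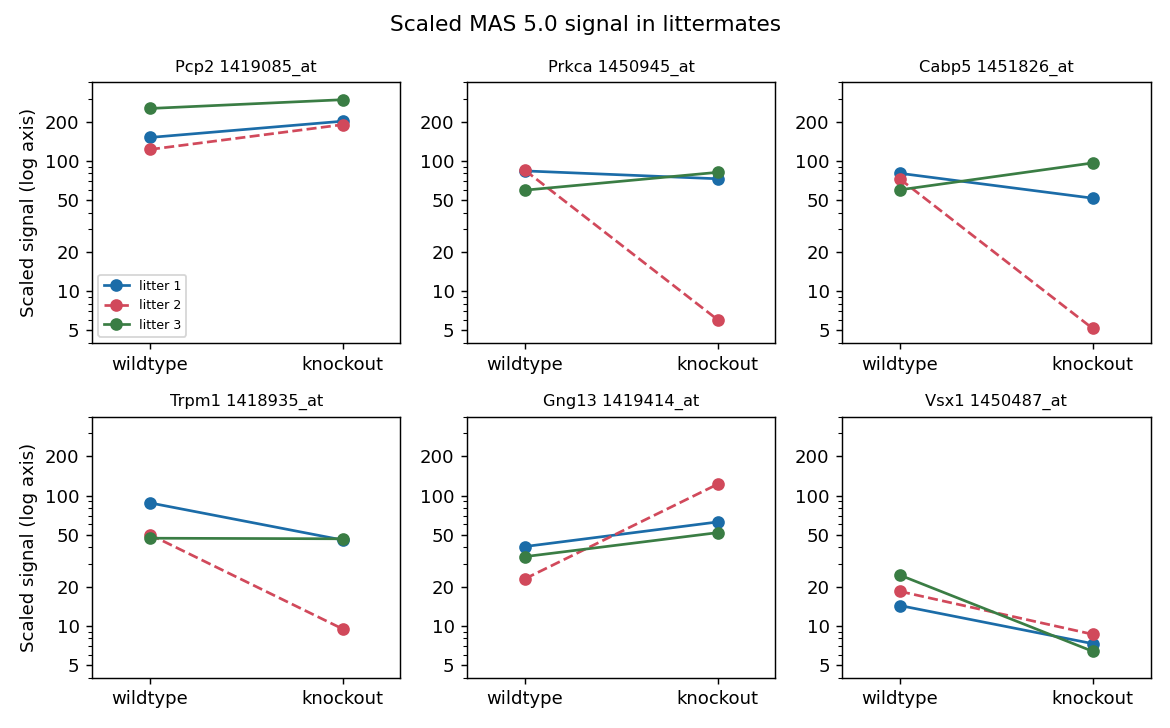
Scaled signal (vertical axis, log scale) of the probe set used for each member in wildtype and knockout, with a line joining each pair of littermates and litter 2, which holds knockout 2, dashed. All 3 lines rise for Pcp2 and Gng13 and all 3 fall for Vsx1, whereas Prkca and Cabp5 fall steeply in litter 2 only.

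Among the other bipolar genes that passed the filter, 0 were called in either direction. Of 6 other bipolar factors, 3 had a positive and 3 a negative difference (median -0.15). Of 4 genes of the mGluR6 cascade, 2 and 2 did (median -0.16). The median over all probe sets that passed the filter was -0.17. Without knockout 2 these medians were -0.03 and -0.01, against -0.01 over all.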

How the data were processed

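Total RNA of each retina was made into biotinylated cRNA and hybridised to 1 array. The authors deposited linear MAS 5.0 intensities, in which background and mismatch probe signal are already subtracted. The arrays had not been brought to a common level. All 6 columns were used, with 0 columns unmatched to a sample. Probe sets were named from GEO's platform annotation (20393 with 1 symbol, 691 with several, 1606 unlisted), and 64 controls were left out. Signals were multiplied to the median wildtype 2% trimmed mean (220.9), 16 was added and log2 taken. Probe sets above the array median in at least 3 arrays were fitted with limma 3.58.1 in R 4.3.3 (lmFit, eBayes, Benjamini-Hochberg). The fit was tested on data simulated from the wildtype means and variances. These held no array like knockout 2, so the test does not cover such an array. Present calls were not used here, and the number of arrays limits the precision.

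Pairing of littermates is given by the series' design, and the pairs were matched here by replicate number. Correlations of the deviations from group means were 0.286, -0.136 and 0.200 in pairs 1 to 3. Between wildtype and knockout arrays of different number they ran from -0.428 to 0.381. Deviations of knockout 2 ran against those of knockout 1 and 3 (-0.913 and -0.883), so this check could not decide the pairing. The log2 signals of wildtype 3 and knockout 3 correlated at 0.973. Either correlated at 0.931 to 0.940 with wildtype 1, wildtype 2 and knockout 1. Knockout 1 correlated at 0.984 with wildtype 1 and at 0.986 with wildtype 2. Each gene was represented by the probe set with the highest mean deposited signal over the 3 wildtype arrays. From each of the 3 other bipolar lists, the highest expressed genes (up to 4) and the lowest genes (up to 3) were named, and Grm6 in any case. The members, lists and tests were chosen with earlier results of these data known, and some genes of other lists were named beside a member after their values were seen. Promoter windows came from RefSeq (GRCm38.p6). Alternatives were other scalings, constants and filters, the littermate block, array weights, and leaving out each array.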

Additional observations from a re-analysis of the deposited data

How the results depend on the processing

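No setting tried called any member or any other probe set: 0 were called with signals as deposited, centred on the 75th percentile or quantile normalised, with a constant of 1 or 32, without the filter, with array weights (whose estimation did not converge), with the replicate block, and without each array. With the replicate block, which pairs littermates, Pcp2 differed by 0.39 (SE 0.32, limma adjusted p = 0.761), and with the block but without pair 2 by 0.30. The sign of 2 tested members depended on the setting. Pcp2 was -0.59 with signals as deposited, where the median of all probe sets that passed the filter was -1.09. Prkca turned to 0.18 when centred on the 75th percentile, to 0.10 with the replicate block without pair 2, and to 0.030 without knockout 2, also without the filter (a setting chosen after seeing the data). Leaving out 1 array at a time gave Prkca from -1.04 to 0.030 and Pcp2 from 0.18 to 0.66. With the mean of a gene's probe sets Pcp2 was 0.14, Vsx1 -0.07 and Trpm1 0.05 (for Vsx1 and Trpm1 without the filter, chosen after seeing the data). The cause of these shifts was not tested.

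The count of members above the threshold in all 3 wildtype arrays, 1 at the median, was 0 at the 60th percentile, 0 at the 75th, 3 (Cabp5, Prkca and Pcp2) above the brightest of 20 genes of other organs (a threshold set by another probe set, so no measure of expression), and 0 with the mean of a gene's probe sets. Without wildtype replicate 3 it was 2, with Prkca added, and leaving out 1 wildtype array at a time gave 1 to 2. Absence of Vsx1 or Gng13 RNA cannot be read from signals below the array median.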

Other observations

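In knockout 2 the order of probe sets within a gene differed from that in the other arrays. Of the 5 members with several probe sets, the probe set that was highest in wildtype fell below another of the same gene in 4 (Vsx1, Cabp5, Prkca and Trpm1) in knockout 2, and in 0 of these genes in any of the other 5 arrays. The probe set of Cabp5 that was brighter in wildtype was at the 6.83 percentile there and the other at 42.3, and those of Trpm1 were at 15.3 and 39.9. The brightest Pcp2 probe set stayed the highest of its 3, at 74.5. This array also had the Actb 3′ to 5′ ratio of 274; the part of RNA quality in the change of order was not tested.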
